A study of Mus musculus with 6 samples.

Results

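The 9 genes described here encode the signalling chains of the B cell receptor and the proteins by which B cells are recognised: *Cd79a*, *Cd79b*, *Blk*, *Cd22*, *Ms4a1*, *Cd37*, *Fcmr*, *Fcrla* and *Pax5*. They were taken by symbol from the 55573 genes listed for inguinal white adipose tissue (iWAT), and each symbol matched 1 gene. The set was selected on the values of these same 6 mice, in which mutant mouse 1 had almost no reads on most of the genes, so their levels are given as a description, and what the fit across all genes gives for them is printed as a description too and supports nothing.

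RNA-seq was performed on total RNA of iWAT, a subcutaneous fat depot, from male C57BL/6NTac mice of 3 months on regular chow without treatment. The 3 mutant mice were homozygous for a global knock-in of THRA K283Q/K288R, a pair of lysine changes in the thyroid hormone receptor alpha that take away sites for SUMO, a small protein tag, and the 3 Wt mice carried the unchanged receptor. The knock-in is present in every cell of the animal, B cells included, and the mutation alters codons, which reads summed per gene cannot show, so the genotype labels could not be checked against the values. Each mouse gave 1 library, with 19607423 to 24228381 reads on genes. The deposited value of a gene is its CPM with a further scaling factor for each mouse, here called the normalized value, and 3 reads correspond to 0.126 to 0.157 depending on the mouse. Adipocyte genes were high in all 6 mice, with *Adipoq*, the gene of adiponectin, between 1332 and 2219, and mouse 1 of the Wt group stood apart by epithelial genes, which summed to 64.8 there and to 3.56 to 9.51 in the other 5 mice.

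The B cell receptor is a membrane immunoglobulin bound to a pair of chains, CD79A and CD79B, whose cytoplasmic tails are phosphorylated by kinases of the Src family when antigen binds. CD22 and other inhibitory receptors recruit phosphatases that damp the signal, and the transcription factor PAX5 holds the B cell program in place from the early precursor to the mature cell. Fat contains some B cells of its own, and the inguinal depot of the mouse also surrounds a lymph node, in which B and T cells are abundant. The methods used here do not say whether the node was removed. In bulk tissue, fewer cells of a type and less RNA per cell cannot be told apart.

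In GENCODE M21 on GRCm38, all 9 are protein-coding genes. *Cd79a* lies on the + strand at chr7:24897381-24902197, *Cd22* on the - strand at chr7:30865402-30880342 and *Cd37* on the - strand at chr7:45233632-45239115. *Fcmr* lies on the + strand at chr1:130865669-130880791 and *Fcrla* on the - strand at chr1:170917576-170927583. *Pax5* (chr4:44524757-44710487), *Cd79b* (chr11:106311341-106314762), *Blk* (chr14:63372836-63417037) and *Ms4a1* (chr19:11249675-11266241) are all on the - strand. The set is therefore spread over 6 chromosomes, with 3 members on chromosome 7 and 2 on chromosome 1.

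Promoter sequences from RefSeq (GRCm38.p6), 250 bases before to 50 after the annotated start, were at hand for 6 of the 9 genes, and *Blk*, *Cd79b* and *Ms4a1* had no entry. They are shown because the values of these genes varied together from mouse to mouse. The stretch before the first GENCODE exon of *Cd79a* is given from its first base, at chr7:24897247-24897380 on the + strand, with the letters CAGGTG in capitals, a form of the E-box, which proteins of the E2A family and other factors bind:
*Cd79a*: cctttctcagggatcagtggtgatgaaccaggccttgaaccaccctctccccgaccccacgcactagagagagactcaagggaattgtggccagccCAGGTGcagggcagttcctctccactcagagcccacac

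The same letters, on either strand, were found in the promoters of *Fcrla*, *Cd22*, *Cd37* and *Fcmr*, and not in the window of *Pax5*. Each is shown in the direction of its gene with 30 bases around the match, which is in capitals and reads CACCTG where it lies on the opposite strand. The intervals are chr1:170927635-170927664 for *Fcrla*, chr7:30879249-30879278 for *Cd22*, chr7:45238997-45239026 for *Cd37* and chr1:130865797-130865826 for *Fcmr*:
*Fcrla*: gagacttggccaCAGGTGtgtggaggcgag
*Cd22*: ccctaCACCTGttcctggtcacccagaagt
*Cd37*: ctgagctatggaCACCTGcgaggaacccat
*Fcmr*: agttgtagaaggctccCAGGTGatcggtgt

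The match begins 154 bases before the RefSeq start in *Cd79a*, 69 before it in *Fcrla*, 245 in *Cd22* and 175 in *Cd37*, and 36 bases after it in *Fcmr*. In *Cd22*, *Cd37* and *Fcmr* the match lies inside an annotated exon of the gene in GENCODE. Of all 32851 promoters in the table, 6640 (20.2%) hold these letters on either strand. The letters AGGAAGT, a site form of ETS factors, were found in the windows of *Cd79a* and *Cd37* and in 9.35% of all promoters. CCCNNGGG, the core of the EBF site, was found in that of *Cd22* and in 13.7% of all, and the octamer ATGCAAAT in none of the 6 and in 1.74% of all. No match overlapped another. All 4 motifs were searched on both strands and were chosen after the sequences had been read, and a match is a string of letters and not a bound site.

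The signalling chains are taken first. *Cd79a* was at 65.2, 129 and 145 in Wt mice 1, 2 and 3, and mutant mice 1, 2 and 3 had 0.524, 79.7 and 123. *Cd79b* was at 57.5, 115 and 134 in the Wt mice and at 0.943, 72.4 and 113 in the mutant mice. Mutant mouse 1 was far below the other 5 in both, with 10 reads on *Cd79a* (exact Poisson 95% interval 4.80 to 18.4) and 18 on *Cd79b* (10.7 to 28.4) where the others had 1373 to 3457, and mutant mice 2 and 3 fell within the range of the Wt mice. PCR can copy 1 molecule many times, and these intervals hold the error of counting alone. Wt mouse 1, the lowest of the other 5, was 124 times mutant mouse 1 for *Cd79a* (95% interval 67.5 to 259.9) and 61.0 times for *Cd79b* (38.4 to 103).

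*Blk*, the Src-family kinase that phosphorylates these chains and is largely restricted to B cells, was at 23.5, 45.6 and 51.0 in the Wt mice and at 0.367, 27.3 and 43.7 in the mutant mice. It had 7 reads in mutant mouse 1 and 561 to 1213 in the other 5 mice. The order of the mice was that of the signalling chains, with mutant mouse 1 lowest, Wt mouse 1 next and Wt mouse 3 highest.

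*Cd22*, a sialic acid-binding receptor that inhibits the signal, was at 104, 219 and 237 in the Wt mice and at 0.734, 128 and 199 in the mutant mice. Only 14 reads fell on it in mutant mouse 1, against 2491 to 5625 in the others, and the genotypes overlapped through mutant mice 2 and 3. Its exons share 479 bases with *Gm29439*, a gene on the other strand, at 0.335, 0.632 and 0.883 in the Wt mice and at 0, 4.76 and 7.63 in the mutant mice. The use of strand in the counting is not given in the sources used here, so reads of the pair cannot be told apart over the shared bases.

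*Ms4a1* encodes CD20, a surface protein of mature B cells. It was at 59.6, 119 and 109 in the Wt mice and at 0.210, 77.9 and 124 in the mutant mice. Mutant mouse 1 had 4 reads (exact Poisson 95% interval 1.09 to 10.2), the fewest of any of the 9 genes, and Wt mouse 1 was 284 times as high (111 to 1045). The highest value of *Ms4a1* was that of mutant mouse 3 and not of Wt mouse 3, unlike in the other 8 genes.

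*Fcmr*, the Fc receptor for IgM, was at 48.7, 101 and 120.2 in the Wt mice and at 0.367, 67.0 and 98.5 in the mutant mice. *Fcrla*, a B cell protein related to Fc receptors that stays inside the cell, was at 17.7, 35.4 and 37.7 in the Wt mice and at 0.367, 21.0 and 30.4 in the mutant mice. Both had 7 reads in mutant mouse 1, and in both the other 5 mice kept the order seen for *Cd79a*. *Pax5* was at 82.4, 179.5 and 187 in the Wt mice and at 0.891, 106 and 159 in the mutant mice, with 17 reads in mutant mouse 1 and 1966 to 4446 elsewhere. *Pax5* thus had the same split, 1 mutant mouse with few reads and the other two between Wt mouse 1 and Wt mouse 2.

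*Cd37*, a tetraspanin of B cells that T cells and myeloid cells also express at lower levels, differed from the rest in mutant mouse 1. It was at 115, 219 and 246 in the Wt mice and at 16.9, 117 and 171 in the mutant mice. With 322 reads, its value in mutant mouse 1 was the lowest of the 6 mice but well above the floor, and Wt mouse 1 was 6.79 times as high (6.05 to 7.64). For the other 8 genes the lowest of the 5 other mice was between 48.3 (*Fcrla*) and 284 (*Ms4a1*) times mutant mouse 1.

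**Figure D1:**
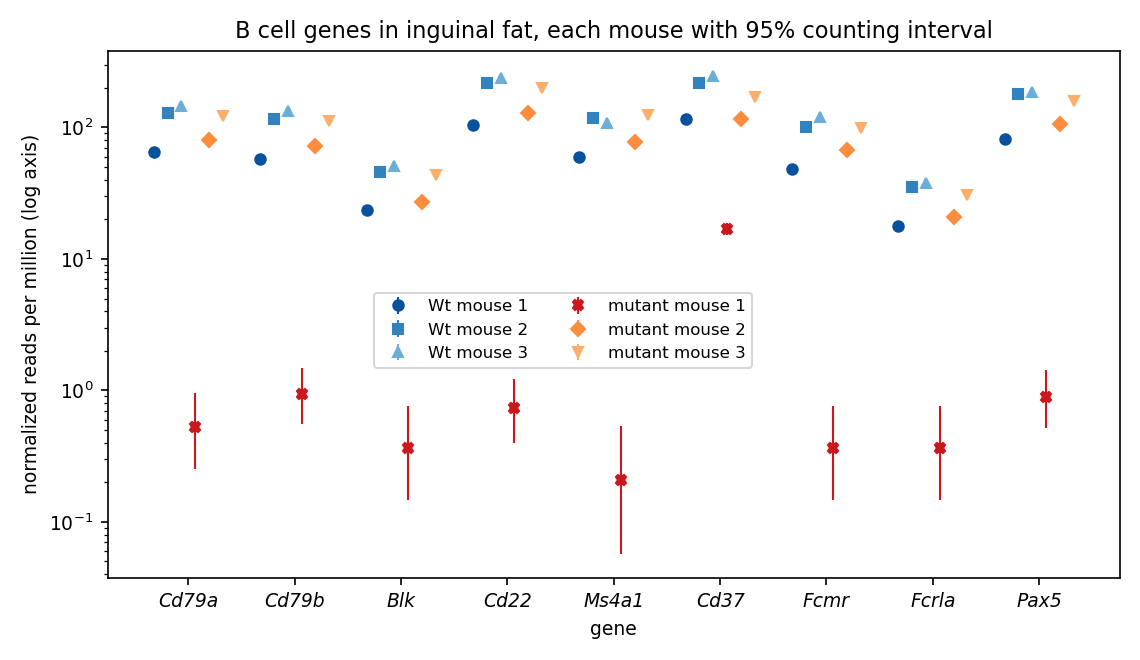
Normalized value (CPM with the scaling factor of each mouse, log axis) of the 9 B cell genes in each of the 6 mice, with bars for the exact Poisson 95% counting interval. Mutant mouse 1 lies between 0.210 and 0.943 for 8 genes and at 16.9 for *Cd37*, while the other 5 mice lie between 17.7 and 246.

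Summed over the 9 genes, Wt mice 1, 2 and 3 had 13690, 23916 and 30129 reads, or 0.0565%, 0.120% and 0.141% of their reads on genes. Mutant mice 2 and 3 had 15492 and 22688 reads (0.0757% and 0.116%), and mutant mouse 1 had 406 (0.00205%), of which 322 were on *Cd37*. The library of mutant mouse 1 had 19827797 reads on genes in all, between the totals of mutant mouse 3 and Wt mouse 2.

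Among the 16868 genes that passed the filter on low reads, 406 (2.41%) were in mutant mouse 1 under 1/10 of every other mouse, and 8 of the 9 B cell genes were among them, all except *Cd37*. The same count was 26, 48 and 14 genes for Wt mice 1, 2 and 3 and 1 and 5 for mutant mice 2 and 3, with 0 of the 9 in each. Since the set was drawn up from this contrast, its share carries no further information.

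Apart from mutant mouse 1, the 9 genes moved together. Relative to Wt mouse 1, their values were 1.02 to 1.38 times as high in mutant mouse 2, 1.49 to 2.08 times in mutant mouse 3, 1.91 to 2.18 times in Wt mouse 2 and 1.83 to 2.47 times in Wt mouse 3. The spread among these 5 mice was between 2.08-fold (*Ms4a1*) and 2.47-fold (*Fcmr*) from the lowest to the highest. Within it, *Cd37* had the lowest ratio in mutant mouse 2 (1.02), mutant mouse 3 (1.49) and Wt mouse 2 (1.91), and *Ms4a1* the lowest in Wt mouse 3 (1.83) and the highest in mutant mouse 3 (2.08).

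**Figure D2:**
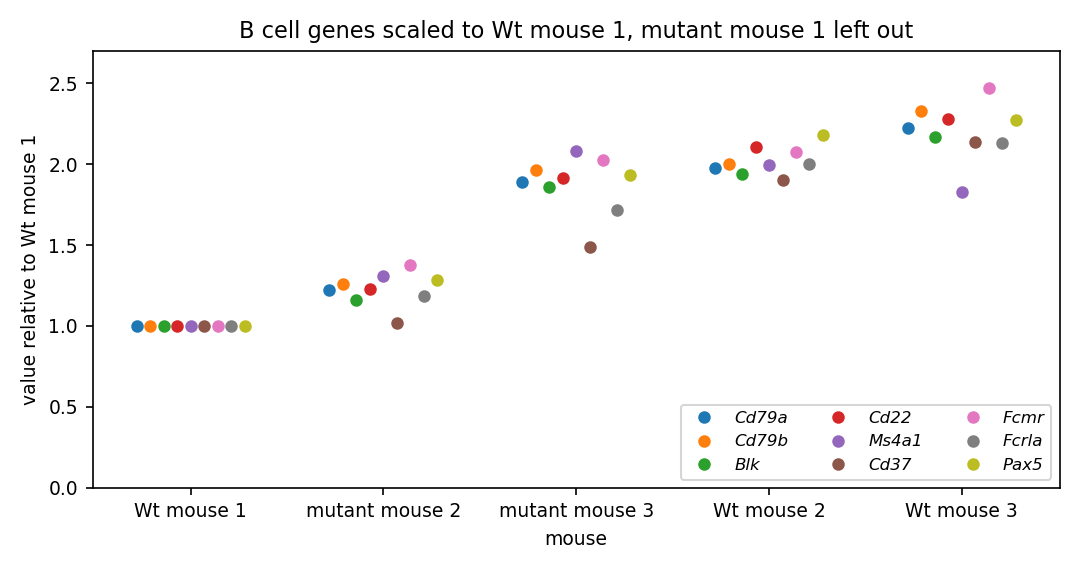
Normalized value of each B cell gene divided by its value in Wt mouse 1 (linear axis from 0), for 5 mice placed from left to right by their median ratio, with mutant mouse 1 left out. The median ratio over the 9 genes is 1.23 in mutant mouse 2, 1.91 in mutant mouse 3 and 2.23 in Wt mouse 3, with Wt mouse 2 between the last pair, so the genotypes interleave.

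The ratio between 2 genes in the same mouse does not depend on the scaling. Reads of *Cd79b* over those of *Cd79a* were 0.882, 0.895 and 0.923 in the Wt mice, against 0.908 and 0.922 in mutant mice 2 and 3, and *Blk* over *Cd79a* was 0.342 to 0.361 in the same 5 mice. The chains and their kinase therefore kept their proportion while the level of *Cd79a* varied 2.23-fold. *Ms4a1* over *Cd79a* was 0.915, 0.926 and 0.752 in the Wt mice and 0.976 and 1.01 in mutant mice 2 and 3. It was lowest in Wt mouse 3 (95% interval 0.715 to 0.792). *Cd37* over *Cd79a* was 1.69 to 1.76 in the Wt mice and 1.46 (1.38 to 1.55) and 1.39 (1.32 to 1.46) in mutant mice 2 and 3. The intervals of both mutant mice lie below those of the Wt mice, of which the lowest bound is 1.62. They hold counting error alone and not the spread between mice, and mutant mouse 1, at 32.2, lay the other way. No test was made of this difference, which was noticed among several ratios in the same values.

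In mutant mouse 1, the reads were too few to place most ratios. *Cd79b* over *Cd79a* was 1.80 with an interval of 0.788 to 4.36, and the intervals of *Cd79b*, *Blk*, *Cd22*, *Ms4a1*, *Fcmr*, *Fcrla* and *Pax5* all took in the values of the other 5 mice. *Cd37* over *Cd79a* was 32.2 (17.3 to 67.8), far above the other mice.

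**Figure D3:**
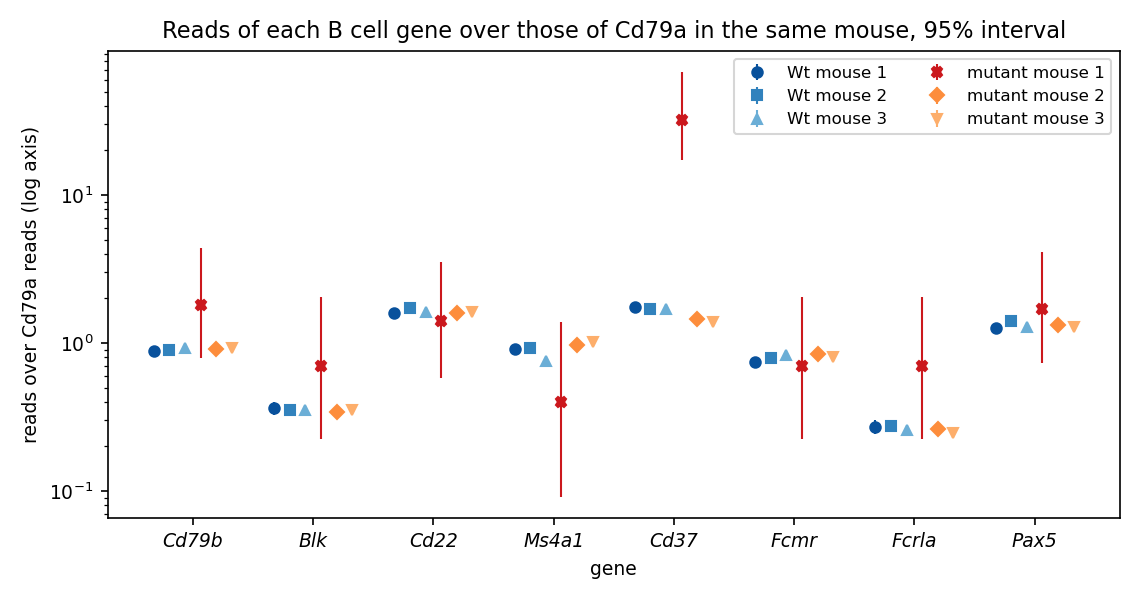
Reads of 8 B cell genes divided by the reads of *Cd79a* in the same mouse (log axis), with exact 95% intervals from the reads. *Cd37* is at 32.2 in mutant mouse 1 and at 1.39 to 1.76 in the other 5 mice, and the wide bars of mutant mouse 1 come from 4 to 18 reads per gene, except for *Cd37* with 322.

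Per kilobase of exon (union of the GENCODE exons) and averaged over the 5 mice without mutant mouse 1, *Cd79a* had the highest level, at 74.4 ± 23.5 (SD, n = 5) normalized CPM per kilobase. *Cd79b* followed at 68.8 ± 22.5, then *Fcmr* at 50.2 ± 16.6, *Cd37* at 49.2 ± 16.8 and *Cd22* at 35.2 ± 11.5. *Fcrla* (16.3 ± 5.02), *Pax5* (16.1 ± 5.24), *Ms4a1* (15.8 ± 4.52) and *Blk* (14.2 ± 4.48) formed the lower end. The SDs hold the differences in total B cell signal between mice, so neighbours were also compared within mice. *Cd79a* was above *Cd79b* in 5 of 5 mice, *Cd79b* above *Fcmr*, *Cd37* above *Cd22* and *Cd22* above *Fcrla* likewise in 5 of 5, whereas *Fcmr* was above *Cd37* in 2 of 5, *Fcrla* above *Pax5* in 3 of 5, *Pax5* above *Ms4a1* in 2 of 5 and *Ms4a1* above *Blk* in 4 of 5. The order of the last 4 genes, and of *Fcmr* and *Cd37*, was therefore not the same in every mouse, and it rests on the gene models, since *Ms4a1* and *Pax5* have exon unions of 6187 and 8853 bases against 1457 for *Cd79a*.

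Compared to Wt, the mutant means were lower for each of the 9 genes. With mutant mouse 1 left out, 8 of the 9 were still lower, by a smaller difference, and *Ms4a1* was higher. The Wt mean of *Cd79a* was 113 ± 42.3 (SD, n = 3) and its mutant mean 67.7 ± 62.1 (SD, n = 3), and the mean of mutant mice 2 and 3 was 101. For *Pax5* the means were 149.6 ± 58.4 and 88.4 ± 80.3 (SD, n = 3 each), with 132 in mutant mice 2 and 3. *Ms4a1* was at 96.0 ± 31.9 in Wt mice, 67.3 ± 62.5 in mutant mice (SD, n = 3 each) and 101 in mutant mice 2 and 3. Over the set, the ratio of the mutant to the Wt mean was between 0.525 (*Cd37*) and 0.701 (*Ms4a1*) with all mice, and between 0.744 (*Cd37*) and 1.05 (*Ms4a1*) with mutant mouse 1 left out.

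The genotypes overlapped for all 9 genes, whereas the 3 mutant and the 3 Wt mice did not overlap for 30.6% of the genes tested. In the comparison of the genotypes across all genes with limma on log2(value + 0.5), 1368 genes (8.11%) passed the false discovery rate (FDR) of 0.05, of which 928 were higher and 440 lower in mutant mice (1019 and 265 when scaled by library totals alone). None of the 9 B cell genes was among them. With limma, 0 of the 9 had an unadjusted p under 0.05, against 24.2% of all genes tested. Of the 9, edgeR's quasi-likelihood test and DESeq2 also called 0, against 6.92% and 12.6% of all. As the set was selected on these values, nothing is read from these counts. The log2 difference of mutant minus Wt was -2.31 for *Cd79a*, -2.48 for *Cd22* and -1.39 for *Cd37*. The median over the 9 genes was -2.24, against -0.05 over all genes tested. Without mutant mouse 1 the differences were between -0.38 (*Cd37*) and 0.10 (*Ms4a1*), with a median of -0.12 against -0.04 over all genes, so the sign of *Ms4a1* turned. The count-based tests, which compare means of reads and not means of logs, gave -0.89 to -0.47 (edgeR) and -0.90 to -0.48 (DESeq2) with all 6 mice.

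The other genes of the B cell receptor pathway and of B cell function were followed in lists chosen with earlier results of these data known. Over 17 lists with 121 genes, of which 114 gene entries were tested, 0 passed the FDR of 0.05 with limma and 0 with edgeR, and 13 (11.4%) had an unadjusted p under 0.05 (limma), against 24.2% of all genes tested. DESeq2 called 10 (8.77%), among them *Jchain* and *Tcf3*, against 12.6% of all. The lists are therefore described by their levels, and mutant mouse 1 is read against the other mice. Of all genes tested, 1227 (7.27%) were in mutant mouse 1 under 0.5 of every other mouse, and 2.41% were under 1/10.

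Of 14 genes that relay the signal of the receptor, 12 were in mutant mouse 1 under 0.5 of every other mouse and 3 under 1/10. The median log2 difference of mutant minus Wt over this list was -0.95 with all mice and -0.21 without mutant mouse 1. *Syk*, the kinase that binds the phosphorylated chains and also acts in myeloid cells, was at 96.3, 162 and 177 in the Wt mice and at 32.6, 104 and 139 in the mutant mice. *Pik3cd*, the leukocyte catalytic subunit of phosphoinositide 3-kinase, was at 19.0 in mutant mouse 1 and at 70.0 to 186 elsewhere. *Syk* and *Pik3cd* thus stayed at levels like that of *Cd37* in the mouse that had almost none of the B cell genes. *Cr2*, the complement receptor of B cells and follicular dendritic cells, was named after its values were seen, with 1 read in mutant mouse 1 and a value of 41.9 to 87.6 in the other mice, which makes Wt mouse 1 800.3 times as high with a counting interval of 143 to 31640.4.

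Among 7 inhibitors of the receptor, 5 were in mutant mouse 1 under 0.5 of every other mouse and 2 under 1/10, with a median log2 difference of -0.74 and of -0.16 without that mouse. *Ptpn6* encodes SHP-1, a phosphatase recruited by CD22 and present in all blood lineages, and was at 84.6, 166 and 192 in the Wt mice and at 18.0, 105 and 149 in the mutant mice. *Inpp5d*, the lipid phosphatase SHIP1, was at 21.7 in mutant mouse 1 against 54.0 to 109.8. *Fcgr2b*, the inhibitory IgG receptor that macrophages and endothelium also carry, did not follow, at 61.4 in mutant mouse 1 and 59.7 to 70.0 in the other mice.

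The 14 transcription factors of the lineage were divided, with 8 in mutant mouse 1 under 0.5 of every other mouse and 4 of them under 1/10. Their median log2 difference was -1.10 with all mice and -0.20 without mutant mouse 1. *Spib*, an ETS factor of B cells and plasmacytoid dendritic cells, was at 41.4, 85.3 and 103 in the Wt mice and at 0.419, 48.4 and 76.8 in the mutant mice. *Pou2af1*, the co-activator of octamer-binding factors, was at 25.4, 61.6 and 59.4 in the Wt mice and at 0.314, 32.5 and 48.4 in the mutant mice. The members with the highest mean were other ones, which fat cells and their progenitors also express. *Ebf1* was at 233 in mutant mouse 1 and 167 to 214 in the other 5, *Foxo1* at 131 against 118 to 149.7, and *Bcl6* at 133 against 95.4 to 120.4. For these 3, the values of mutant mouse 1 lay within or above those of the other mice, so the scarcity of *Spib* and *Pou2af1* reads was not shared by the whole list.

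The 10 surface proteins for survival and homing of mature B cells followed the 9 genes most closely, with 10 in mutant mouse 1 under 0.5 of every other mouse and 8 under 1/10, and a median log2 difference of -2.01 that became -0.14 without that mouse. The Wt mice summed to 334, 725 and 867 over this list, and the mutant mice to 11.8, 445 and 645. *Fcer2a*, the low-affinity IgE receptor CD23 of follicular B cells, was at 77.7, 164 and 182 in the Wt mice and at 0.419, 95.1 and 143 in the mutant mice. *Ltb*, lymphotoxin beta, was at 0.891 in mutant mouse 1 and 35.4 to 116 elsewhere.

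Genes of other stages of the lineage followed in part. Of 5 germinal centre genes, 1 was in mutant mouse 1 under 0.5 of every other mouse, and the most abundant, *S1pr2*, was at 10.5 in mutant mouse 1 and 9.78 to 14.9 in the others. The 6 precursor genes summed to 0.367 in mutant mouse 1 and to 0.964 to 6.10 in the others, and 1 of them, *Dntt*, had enough reads to be tested. Of 7 plasma cell genes, 3 were in mutant mouse 1 under 0.5 of every other mouse and 0 under 1/10. *Xbp1*, which secretory and fat cells also express, was at 163 there and at 132 to 194 elsewhere, and *Sdc1* at 13.8 against 11.3 to 16.2. *Jchain*, the joining chain of secreted IgM and IgA, was at 43.4, 62.3 and 79.8 in the Wt mice and at 8.23, 28.9 and 28.1 in the mutant mice. Unlike for the 9 genes, every mutant mouse was thus below every Wt mouse. The genotypes did not overlap, in either direction, for 30.6% of all genes tested. Reads on the precursor genes were thus few in every mouse, also in those with the most reads on the 9 genes.

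The immunoglobulin chains form the antigen-binding part of the receptor, and the genes of their constant regions did not all move alike. *Ighd*, the delta chain of IgD, was at 169, 344 and 388 in the Wt mice and at 3.04, 272 and 399.8 in the mutant mice, while *Ighm*, the mu chain of IgM, was at 711, 930.4 and 1062 in the Wt mice and at 494, 762 and 833 in the mutant mice. A resting B cell splices both chains from one primary transcript. The ratio of *Ighm* to *Ighd* reads was 2.08 to 4.21 in the other 5 mice, highest in Wt mouse 1, and 163 (95% interval 126 to 214) in mutant mouse 1. *Igkc*, the kappa light chain, was at 24.2 in mutant mouse 1 and 217 to 534 elsewhere. The 3 lambda constant genes were lowest in mutant mouse 1 as well, with *Iglc1* at 0.629, *Iglc2* at 0.157 and *Iglc3* at 0.681. The lowest values of the other 5 mice were 5.19, 12.9 and 12.9 in the same order. Reads may be divided between those of the lambda genes that are similar in sequence, which was not tested, so the value of each single gene is uncertain.

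Genes of T cells moved with the B cell genes. All 12 T cell genes were in mutant mouse 1 under 0.5 of every other mouse, 10 of them under 1/10, and the Wt mice summed to 198, 550 and 778 where the mutant mice summed to 14.0, 323 and 406. None was at 0 in mutant mouse 1, where *Cd3e* and *Cd3d*, chains of the T cell receptor complex, had 8 reads each. *Cd4* was at 1.73, *Lck* at 1.47 and *Cd8a* at 0.576 in mutant mouse 1, against 26.9 to 132, 31.7 to 112 and 21.0 to 88.4 in the others. Divided by the sum of the 9 genes, the T cell sum of the Wt mice was 0.346, 0.473 and 0.614. That of the mutant mice was 0.658, 0.464 and 0.382, so the ratio varied between mice of a genotype. In mutant mouse 1, however, *Cd37*, which T cells also express, made up 16.9 of the 21.3 summed over the 9 genes. The ratio of that mouse is therefore not a balance of T to B cell genes like that of the other mice. Of 6 lymph node stroma genes, 4 had enough reads to be tested. Among these 4, 2 were in mutant mouse 1 under 1/10 of every other mouse, each with 1 read there. *Glycam1*, a mucin of the vessels by which lymphocytes enter a node, was at 12.4, 37.2 and 57.8 in the Wt mice and at 0.0524, 49.5 and 61.2 in the mutant mice. The value of mutant mouse 1 is 1 read, and Wt mouse 1 was 237 times as high, with a counting interval of 42.3 to 9410. *Cxcl13*, the chemokine of B cell follicles, did not go with it, at 26.6 in mutant mouse 1 and 25.6 to 74.0 in the others, and *Chst4* was at 0.629 against 0.838 to 3.98. *Ccl21a* is listed at 0 in all 6 mice under each of its identifiers. Whether its reads were absent, or lost or assigned elsewhere in the counting, was not tested. The summed level of the list was 40.2 to 118 in the Wt mice and 27.5 to 141 in the mutant mice. The part of T cell and lymph node genes in the level of the B cell genes was not tested.

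Genes of the other cell types differed among themselves in mutant mouse 1. Of 5 NK cell genes, 4 were there under 0.5 of every other mouse and 0 under 1/10, with a sum of 4.56 against 18.3 to 40.7. Of 5 dendritic cell genes, 3 were under 0.5 and 0 under 1/10, with a sum of 33.6 against 50.4 to 105. None of the macrophage, neutrophil, red blood cell, epithelial and adipocyte genes was under 0.5 of every other mouse. Macrophage genes summed to 1115 in mutant mouse 1 and to 1080 to 1314 in the other 5, with *Lyz2* at 331 against 422 to 631, *Csf1r* at 232 against 197 to 274 and *Mrc1* at 285 against 197 to 249. Neutrophil genes summed to 7.44 in mutant mouse 1 and to 7.16 to 15.7 in the others, and adipocyte genes to 15998 against 10099 to 16775. Red blood cell genes summed to 159 in mutant mouse 1, above the 87.9 to 118 of the others. Most of that sum was *Hbb-bs*, at 119 against 58.9 to 79.9, and *Hbb-bt* and *Alas2* were also above the other mice. *Hba-a1*, at 6.24 against 3.79 to 9.55, and *Hba-a2*, at 4.66 against 3.46 to 7.08, were not. Epithelial genes summed to 6.60 in mutant mouse 1, within the range of the other mice.

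**Figure D4:**
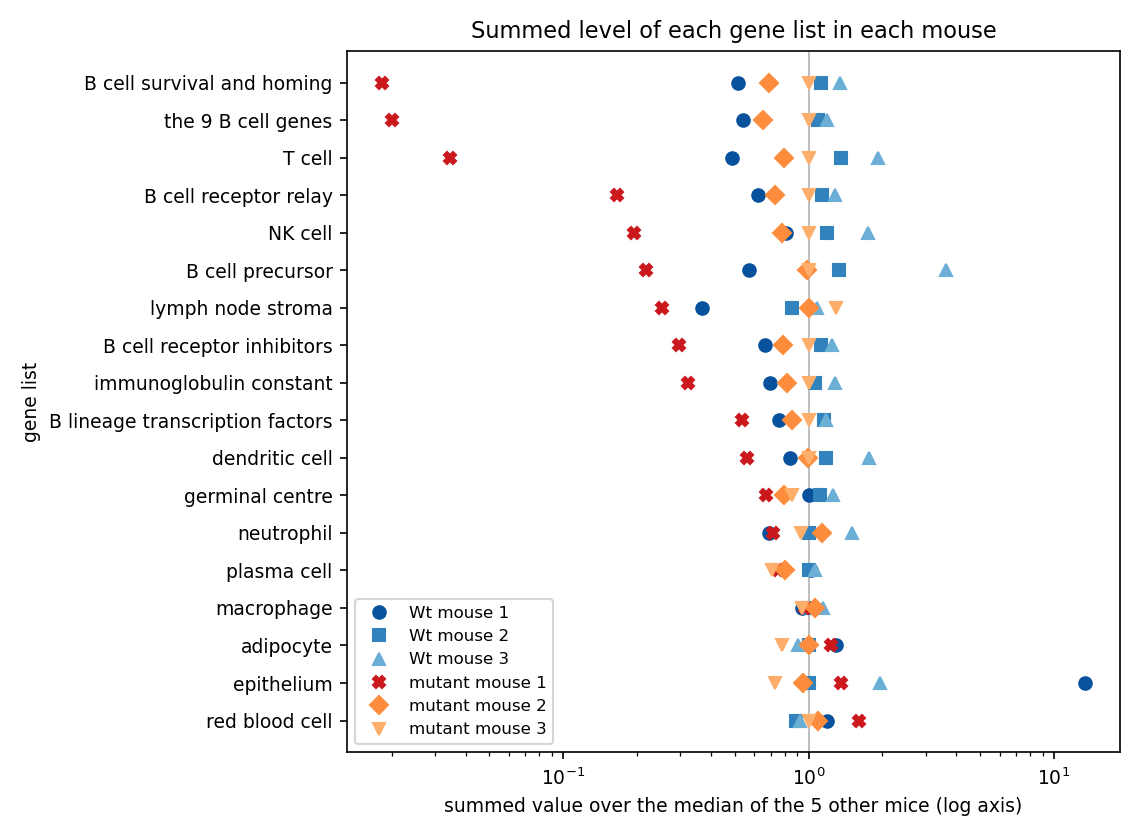
Summed normalized value of each gene list in each mouse, divided by the median of the 5 mice other than mutant mouse 1 (log axis). Mutant mouse 1 is at 1.83% of that median for survival and homing genes and 2.01% for the 9 B cell genes. It is at 3.45% for T cell genes, 16.5% for relay genes, 96.8% for macrophage genes and 124% for adipocyte genes. *Cd37* makes up 16.9 of the 21.3 summed over the 9 B cell genes in that mouse. Without *Cd37*, the set has 84 reads there, against 10956 to 24282 in the other 5 mice.

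By profile over the 6 mice, the genes nearest to the mean of the 9 were found as the smallest root mean square difference of centred log2(value + 0.5). *Cxcr5*, the receptor for CXCL13 that leads B cells into follicles, was nearest, at 0.08, with 22.0, 47.7 and 48.3 in the Wt mice and at 0.157, 27.1 and 42.2 in the mutant mice. *Spib* (0.11), *Pou2af1* (0.12), *Tnfrsf13c* (0.13), the receptor for the survival factor BAFF, and *H2-Ob* (0.14), a chain of the class II modulator H2-O, came next. *Fcrl1* (0.17), *Il21r* (0.22) and *Ighd* (0.23) were also among the nearest 10. *H2-Ob* and *Il21r* stood in none of the lists. Among the 9 genes themselves the difference from their mean was 0.04 for *Cd79b*, 0.43 for *Ms4a1* and 1.02 for *Cd37*, and its median over all genes tested was 2.28. The 9 genes make up that mean and were selected on the values of these mice, so their own closeness carries no further information. The profile includes mutant mouse 1, in which all 9 were lowest, and nearness to it was not measured without that mouse.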

How the data were processed

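Total RNA of iWAT from 3 mutant and 3 Wt mice was sequenced, with 1 library per mouse. Per the submitters' processing notes, Bowtie2 2.1.0, RSEM 1.2.15, edgeR and the build mm10 were used, and the annotation and the use of strand are not given in the sources used here. The signal that the authors deposited per gene and mouse is CPM with a further factor for each mouse. Dividing by the smallest value of a mouse gave whole reads, within 0.01 of a read, for 100.0% of the values above 0. Of 55573 identifiers, 55480 (99.8%) were found in GENCODE M21 (GRCm38), used for coordinates, overlaps and exon lengths.

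For the genotypes, limma 3.58.1 (R 4.3.3) was fitted with a trend to log2(value + 0.5) over 16868 genes kept by filterByExpr of edgeR 4.0.16 with the authors' scaled library sizes, at a Benjamini-Hochberg FDR of 0.05. DESeq2 1.42.0 and edgeR's quasi-likelihood test were run on the recovered reads as alternatives. The 9 genes and the lists were chosen with earlier results of these data known. Besides the 9, the genes named are in each list those past the FDR and the 3 with the highest mean value, and the 10 nearest profiles, of which some genes are not reported here. Of the lists of cell types other than B and T cells, some of these are given by their sum alone. *Cr2*, *Gm29439*, *Cd3d*, *Cd3e*, *Tcf3*, *Ccl21a*, *Iglc1*, *Iglc2*, *Iglc3*, *Hba-a2* and *Alas2* were named in the account of their lists after their values were seen. Fold changes on the log2(value + 0.5) scale understate those of low genes. Other tools were Python 3.11.15, pandas 2.3.3, SciPy 1.17.1 and Matplotlib 3.10.9.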

Additional observations from a re-analysis of the deposited data

How the results depend on the processing

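Since mutant mouse 1 had 4 to 18 reads on 8 of the 9 genes, the standard errors of their log2 differences were wide, and all p-values measure the spread between these 6 mice only. None of the 9 B cell genes passed the FDR of 0.05 under any of the 15 alternatives, where 3.28% to 24.1% of all genes tested did. All 9 were fitted each time, except with at least 10 reads in every mouse, which left 5. The number of genes called among all those tested, 1368 with limma, was 2118 with DESeq2 on the recovered reads, 598 with at least 10 reads in every mouse and 4063 with a replicate block for the mouse number, and between 554 and 1005 when each mouse was dropped in turn. The cause was not tested, except that fewer genes or mice enter the last filter and the fits without a mouse. The log2 difference of each of the 9 genes stayed below 0 under each alternative that could be fitted, apart from that of *Ms4a1* without mutant mouse 1 (0.10). A shared number does not name a shared animal, and the main fit did not pair the samples by number. The correlations of the deviations of same-numbered mice from the genotype means were 0.686, 0.0573 and 0.560 for numbers 1, 2 and 3. Those of differently numbered mice are not given for comparison, and whether same-numbered mice share anything beyond the number was not tested. With the replicate block, limma called 0 of the 9 genes, against 24.1% of all genes. An unadjusted p under 0.05 was found for 1 of the 9, against 41.1% of all genes. Of the 114 list entries, limma called 30 (26.3%) with the block, against 24.1% of all genes, and 0 without it. DESeq2 called 10, and scaling by library totals and pseudocounts of 0.1 and 1 gave 1 each, as did the fit without mutant mouse 1.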
